A study of Mus musculus with 2 samples.

Results

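Cluster 9 is a group of 360 cells, of 7613 in all, that the deposited cell table numbers 9 and names T cells. Its members are all cells with that cluster number, 121 of the 2742 cells of the saline library and 239 of the 4871 cells of the nt-LNA library, and no barcode of cluster 9 occurred in both libraries. The cells came from the aorta of Apoe-/- mice, which lack apolipoprotein E and form atherosclerotic plaques. All animals ate a western diet, and for 4 weeks received weekly saline or nt-LNA at 30 mg/kg. LNA is the usual short form of locked nucleic acid, a modified nucleotide used in antisense oligonucleotides, and the labels do not say what nt stands for. The sources used here do not give sex, age or the number of mice per library. The arch and thoracic part of the aorta were digested, live CD45+/CD3- cells, that is, leukocytes without the T cell receptor complex on their surface, were sorted, and their RNA was sequenced from its 3′ end. The sample titles call the cells macrophages, whereas cluster 9 carries T lineage RNA as described below. The study asked how nt-LNA affects the composition and state of cells in the lesion. The deposited counts of unique molecular identifiers (UMIs, each marking 1 captured RNA molecule) pool both libraries within a cluster. Gene levels are therefore given for cluster 9 as a whole, and the treatments are compared only by numbers of cells.

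T cell progenitors mature in the thymus. They first cut and join the gene segments of the T cell receptor beta, gamma and delta chains with the RAG1 and RAG2 recombinase while they carry neither CD4 nor CD8. A beta chain that pairs with the invariant pre-T alpha chain then drives a burst of division and the switch to the double-positive stage, at which both coreceptors are made, division stops and RAG is used again to assemble the alpha chain. Most double-positive thymocytes die unless their receptor is selected, and the survivors keep either CD4 or CD8 and leave the thymus. Double-positive cells carry little CD3 on the surface although they transcribe its genes.

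The 4 markers of the cluster's working label, Rag1, Dntt, Arpp21 and Cd8b1, were all detected at high levels. Levels are given as CPM, a gene's UMI count divided by all UMIs of its cluster and scaled to counts per 1000000, with exact Poisson 95% intervals that cover counting error only. Because the clusters were built from the same expression values, differences in genes between them are descriptions and carry no test. Rag1, a subunit of the recombinase, had 2068 UMIs in cluster 9, which is 5.74 per cell and 1657 CPM (95% interval 1586 to 1730). Its level was 1123 CPM in cluster 5, 494 CPM in cluster 12, 339 CPM in cluster 14 and 233 CPM in cluster 13, with 12.5 to 204 CPM in the other 15 clusters. Cluster 9 thus stood above every other cluster in Rag1 CPM, without overlap of the counting intervals. Per cell the order differed, since cluster 12 held 5.87 Rag1 UMIs per cell from a mean of 11884 UMIs and cluster 9 held 5.74 from a mean of 3467.

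**Figure D1:**
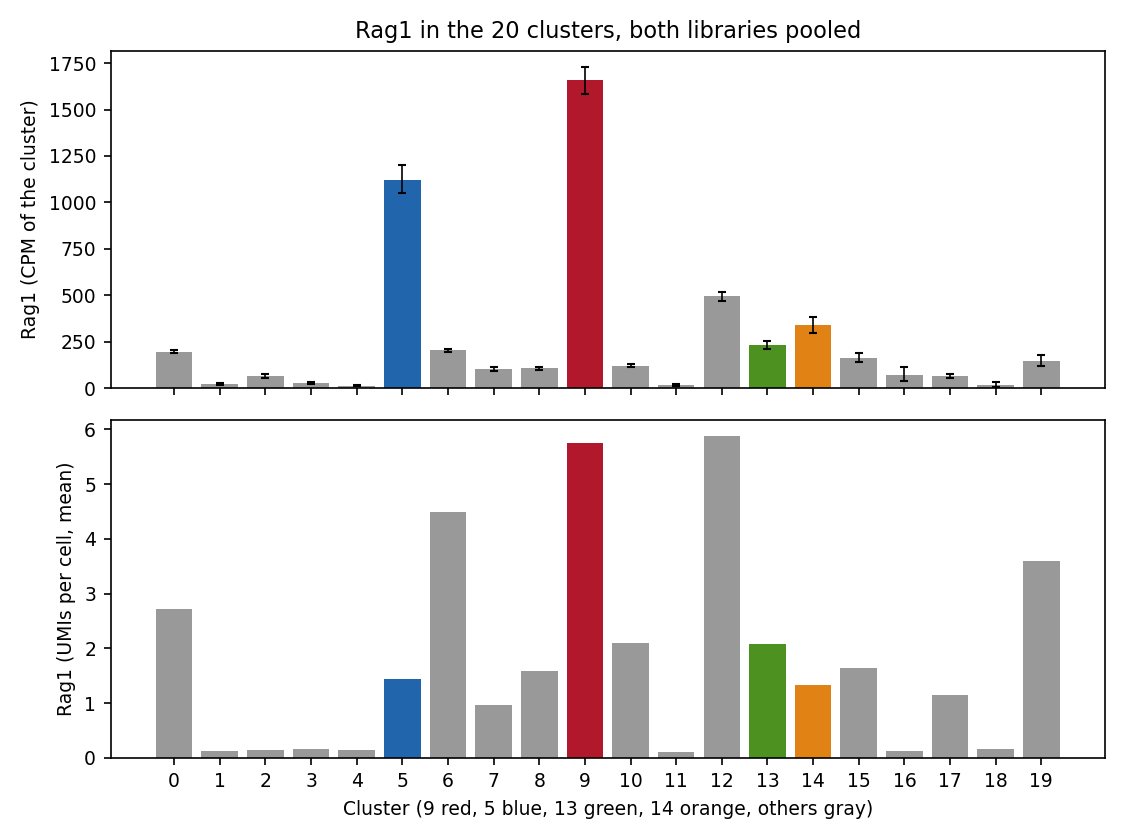
Rag1 in each of the 20 clusters, as CPM with exact Poisson 95% intervals (upper panel) and as mean UMIs per cell (lower panel), both libraries pooled, with the cluster number on the horizontal axis. Cluster 9 (red) is highest at 1657 CPM and cluster 5 (blue) next at 1123 CPM, whereas per cell cluster 12 (5.87) and cluster 9 (5.74) are nearly level.

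The references for cluster 9 were the mean of the other 19 clusters and, within the T lineage, clusters 5, 13 and 14, all deposited as T cells, with 618, 245 and 198 cells. Cluster 5 was its nearest neighbour across 14202 genes (Pearson r = 0.934 between log2 levels, a description across genes that are not independent replicates), followed by cluster 12 (0.926), which is deposited as B cells, and clusters 13 and 6 (both 0.906). The depth of these clusters differed. The mean number of UMIs per cell was 3467 in cluster 9, 1278 in cluster 5, 8891 in cluster 13 and 3935 in cluster 14. Mitochondrial genes gave 3.55% of UMIs in cluster 9, against 7.24% in cluster 5, 4.29% in cluster 13 and 11.2% in cluster 14. Ribosomal protein genes gave 19.5%, against 10.0%, 28.9% and 9.82%, and Malat1, a nuclear noncoding RNA, stood at 49966 CPM against 115774, 25689 and 38803 CPM. The part of these differences in the gene results below was not tested.

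The 3 remaining markers placed cluster 9 beside different T lineage clusters. Dntt encodes terminal transferase, which adds untemplated bases where receptor segments join. Its 1203 CPM (1143 to 1265) in cluster 9 was level with the 1172 CPM of cluster 13, at a ratio of 1.03 (exact 95% interval 0.962 to 1.09, counting error only), with 401 CPM in cluster 5 and 291 CPM in cluster 14. Arpp21, which encodes a phosphoprotein abundant in immature thymocytes, was at 872 CPM, level with the 847 CPM of cluster 5 at a ratio of 1.03 (0.934 to 1.14), with 611 and 665 CPM in clusters 13 and 14. Cd8b1, the beta chain of the CD8 coreceptor, was at 2332 CPM in cluster 9, 3355 CPM in cluster 5, 2716 CPM in cluster 14 and 29.4 CPM in cluster 13. It was thus lower in cluster 9 than in clusters 5 and 14 and far above cluster 13.

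Markers of other cell types were summed to show what else the cluster held, and all lists but those of the vessel wall and red blood cells lay below the median of the other 19 clusters. The summed level of cluster 9 over 10 markers of NK cells and innate lymphoid cells was 24.8 CPM, of which 16.03 CPM was Areg, with Klra8, Tbx21 and Il1rl1 at 0 UMIs, where a limit of 3 counts for 0 UMIs is 2.40 CPM. The summed level in clusters 5, 13 and 14 ran from 32.1 to 60.8 CPM. The 7 dendritic cell markers summed to 13.6 CPM, against 4.59 to 29.5 CPM in those clusters, with Xcr1 at 0. The 11 markers of B cell progenitors summed to 248 CPM, below clusters 5, 13 and 14 (346 to 404 CPM), with Igll1 at 0. Of these Vpreb1, a surrogate light chain gene, was over 2-fold above the mean of the other clusters at 4.01 CPM, and Vpreb2 was highest in cluster 9 in CPM, with 1 UMI. The 9 markers of mature B cells summed to 1563 CPM against 1406 to 2592 CPM. The 12 macrophage and monocyte markers summed to 550 CPM (131 to 668 CPM in the 3 clusters), mostly Lyz2 at 342 CPM, and the 8 neutrophil markers to 182 CPM (70.2 to 505 CPM), with Mpo at 0. Vessel wall markers summed to 97.8 CPM (78.5 to 132 CPM, with a median of 78.5 CPM over the other 19 clusters), of which Pecam1, which leukocytes also express, made 86.5 CPM, and Cdh5 was at 0. Red blood cell markers summed to 28.0 CPM (20.7 to 97.5 CPM, with a median of 22.95 CPM over the other 19 clusters). Of 9 thymic epithelial markers 7 were at 0 in cluster 9, including Foxn1, Psmb11, Aire and Krt5, and the sum of 32.9 CPM (84.7 to 151 CPM in the 3 clusters) was Ccl25 and Epcam. Ptprc, which encodes CD45, the surface protein used in the sort, was at 1094 CPM. Apoe had 2 UMIs, and a 3′ tag does not show whether the targeted gene is disrupted.

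Over all cells, the share of cluster 9 differed little between the libraries. It was 4.41% of cells (121 of 2742, exact Clopper-Pearson 95% interval 3.67% to 5.25%) in the saline library and 4.91% (239 of 4871, 4.32% to 5.55%) in the nt-LNA library. The ratio of nt-LNA to saline was 1.11, with an exact conditional interval of 0.890 to 1.40 that includes equal shares. The clusters nearest to it differed more: the ratio was 2.29 (1.87 to 2.81) for cluster 5, 1.53 (1.15 to 2.06) for cluster 13 and 2.53 (1.76 to 3.74) for cluster 14. Within clusters 5, 9, 13 and 14 together, cluster 9 therefore made 35.1% of saline cells (121 of 345) and 22.2% of nt-LNA cells (239 of 1076), a ratio of 0.633 (0.507 to 0.795). When all 6 clusters named T cells formed the denominator, the ratio was 0.674 (0.540 to 0.846). With clusters named B, T or NK cells left out of the denominator, apart from cluster 9 itself, the shares were 8.73% and 13.02% and the ratio turned to 1.49 (1.19 to 1.87). Without clusters 2, 5, 14 and 16 in the denominator, the shares were 5.06% and 6.59%. The ratio was then 1.30 (1.04 to 1.63), an interval that leaves out equal shares. The direction of the difference thus depended on the cells counted in the denominator. With 1 library per treatment there is no replicate check, the intervals cover counting error only, and animal, library and treatment cannot be told apart.

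**Figure D2:**
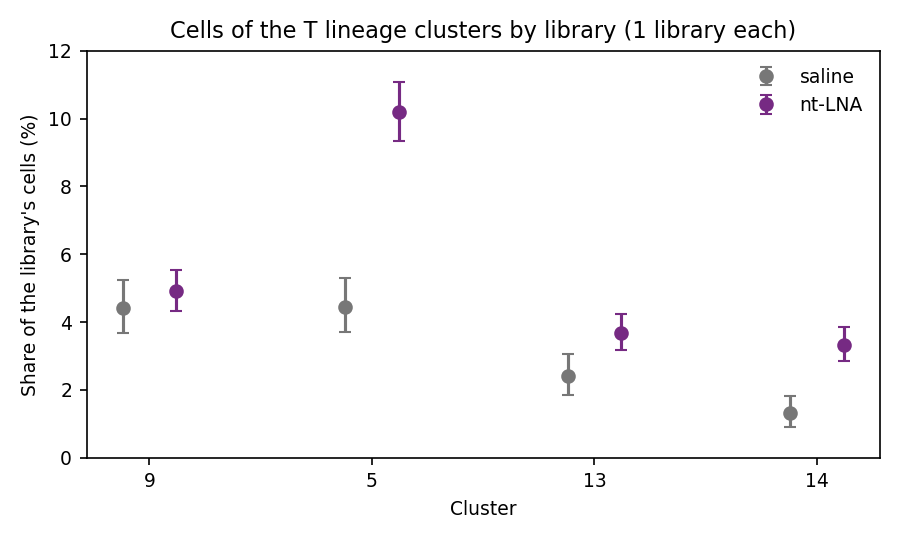
Share of each library's cells (vertical axis, percent, with exact Clopper-Pearson 95% intervals) in clusters 9, 5, 13 and 14 for the saline library (gray) and the nt-LNA library (purple), 1 library each. The intervals overlap for cluster 9 (4.41% and 4.91%) and lie apart for clusters 5, 13 and 14, with the nt-LNA library higher.

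Genes of V(D)J recombination, the joining of receptor segments, summed to 6705 CPM in cluster 9. Of the 20 clusters only cluster 6 was higher, at 10137 CPM. The list shares Rag1 and Dntt with the label of cluster 9. All 15 members of the list had UMIs in cluster 9. Against the mean of the other 19 clusters 7 of 15 were over 2-fold higher and 0 lower, where 11.5% of 14202 features were higher and 24.8% lower, and the median log2 ratio was 0.91 against -0.01 over all features. Log2 ratios were taken as log2(CPM + 0.5), which draws low genes toward 0. Against the mean of clusters 5, 13 and 14, 2 of 14 were over 2-fold higher and 2 lower, where 4.06% of 9989 features were higher and 15.8% lower, with a median of 0.31 against -0.13 over all features. Rag1 was 1 of these 2 higher members. Rescaling by edgeR's TMM factors moved the median of all features against the other clusters from -0.01 to -0.27, and the share of higher among all over 2-fold differences from 31.7% to 20.3%.

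Within the list, single members took different places. Rag2, the partner of RAG1, was sparse, at 46 UMIs or 36.9 CPM (27.0 to 49.2), yet highest of the 20 clusters in CPM, 1.82 times cluster 5 (1.01 to 3.44) and 2.29 times cluster 13 (1.45 to 3.67). Per cell, clusters 6, 12 and 13 held more Rag2, at 0.446, 0.208 and 0.143 UMIs against 0.128 in cluster 9. Xrcc6, which encodes the Ku70 end-binding protein, was at 333 CPM, and the ligase gene Lig4 at 80.9 CPM, both highest in cluster 9. Dclre1c, which encodes the hairpin-opening nuclease Artemis, was at 154 CPM, 0.568 times cluster 5 and 2.43 times cluster 13. The 2 members over 2-fold lower than the T lineage mean were the DNA damage kinase genes Atm and Prkdc, each with 16 UMIs (12.8 CPM). Their ratios to cluster 14 were 0.217 (0.115 to 0.391) and 0.277 (0.144 to 0.513). A count of 2 lower among 14 is near the 15.8% of 9989 features that were lower than the T lineage mean.

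The promoters of Rag1, Dntt and Ptcra are shown because these genes separated cluster 9 from its neighbours in different ways: Rag1 was highest in cluster 9, Dntt was level with cluster 13, and Ptcra, the pre-T alpha gene, was high only in clusters 13 and 14 of the 4. Each is the 250 bases before the gene's start in RefSeq (GRCm38.p6), written 5′ to 3′ on the gene's strand, at chr2:101649533-101649782 on the minus strand for Rag1, chr19:41029025-41029274 on the plus strand for Dntt and chr17:46763713-46763962 on the minus strand for Ptcra. Capitals mark matches to 3 motifs searched on both strands: the E-boxes CAGGTG (or CACCTG) and CAGCTG, bound by E proteins such as those encoded by Tcf3 and Tcf12, and the RUNX motif TGTGGT (or ACCACA).
Rag1: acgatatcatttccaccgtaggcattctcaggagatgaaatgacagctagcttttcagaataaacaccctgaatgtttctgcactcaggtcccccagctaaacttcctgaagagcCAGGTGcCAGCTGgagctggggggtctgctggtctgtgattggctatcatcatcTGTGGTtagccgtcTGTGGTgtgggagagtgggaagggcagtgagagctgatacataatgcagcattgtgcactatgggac
Dntt: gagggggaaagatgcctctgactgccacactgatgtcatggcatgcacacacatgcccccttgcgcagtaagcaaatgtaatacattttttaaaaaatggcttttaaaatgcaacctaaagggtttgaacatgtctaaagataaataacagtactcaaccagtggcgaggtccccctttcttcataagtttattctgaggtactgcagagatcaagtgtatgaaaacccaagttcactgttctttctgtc
Ptcra: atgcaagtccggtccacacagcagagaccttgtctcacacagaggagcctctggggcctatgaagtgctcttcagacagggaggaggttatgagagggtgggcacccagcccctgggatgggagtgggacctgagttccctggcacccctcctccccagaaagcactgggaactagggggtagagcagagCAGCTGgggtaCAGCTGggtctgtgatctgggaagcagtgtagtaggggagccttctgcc
Counted back from the start, Rag1 held CAGGTG at 135 bases, CAGCTG at 128 bases and TGTGGT at 81 and 67 bases, Ptcra held CAGCTG at 60 and 49 bases, and these letters were not in the Dntt window. Of 32851 windows of this length in the table, 17.2% held CAGGTG, 13% CAGCTG and 14.05% TGTGGT, each counted on either strand. Of the 30 genes with the largest ratios in cluster 9, described further on, 19 were matched to the table, and 7, 8 and 4 of them held the 3 motifs in at least 1 window (36.8%, 42.1% and 21.1%), where 19.4%, 14.7% and 15.9% of all 27025 genes did. These are matches of letters and do not show binding.

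Genes of the double-positive stage formed the list with the highest median of the 15 against the other clusters, and they set cluster 9 beside cluster 5 and apart from cluster 13. Against the other 19 clusters 19 of 22 were over 2-fold higher and 0 lower (11.5% and 24.8% of 14202 features), with a median log2 ratio of 2.14. The list shares Rag1, Dntt, Arpp21 and Cd8b1 with the cluster's label. Against cluster 5 alone the median was -0.33, with 2 of 22 over 2-fold higher and 0 lower (9.07% and 9.64% of 8040 features). Against cluster 13 it was 1.91, with 13 higher and 0 lower (11.6% and 12.5% of 9076 features), and against cluster 14 it was 0.43, with 7 higher and 1 lower (14.8% and 19.1% of 8242 features). Against the mean of the 3 clusters 5 of 22 were higher and 0 lower (4.06% and 15.8% of 9989 features), with a median of 0.38.

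Both coreceptors were present. Cd4 was at 465 CPM (428 to 504) in cluster 9, 839 CPM in cluster 5, 345 CPM in cluster 14 and 3.67 CPM in cluster 13. Cd8a was at 1195 CPM in cluster 9, 1508 CPM in cluster 5, 1512 CPM in cluster 14 and 11.9 CPM in cluster 13. Cluster 13 thus lacked most RNA of both coreceptors, and cluster 9 held less of each than cluster 5.

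The members that exceeded cluster 5 by over 2-fold were Dntt, at 2.997 times (2.65 to 3.39), and Sh2d1a, at 3.72 times (3.01 to 4.63). Sh2d1a encodes the SAP adaptor of SLAM family receptors and was at 480 CPM, against 129 CPM in cluster 5. Its receptor partner Slamf6 went the other way, at 123 CPM against 209 CPM. Rmnd5a, which encodes a ubiquitin ligase subunit, was at 571 CPM, 1.93 times cluster 5 and 11.5 times cluster 13. The chemokine receptor gene Ccr9, which draws thymocytes to CCL25, was at 1092 CPM, 0.619 times cluster 5 and 6.96 times cluster 13. Themis, a positive selection adaptor, was at 588 CPM and 0.714 times cluster 5, and Satb1, a chromatin organiser, at 2212 CPM and 0.803 times cluster 5. Aqp11, Cd24a and Endou were at 385, 473 and 745 CPM, or 0.728, 1.36 and 1.08 times cluster 5. The member over 2-fold below cluster 14 was Ly6d, a surface antigen, at 1321 CPM and 0.400 times that cluster.

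**Figure D3:**
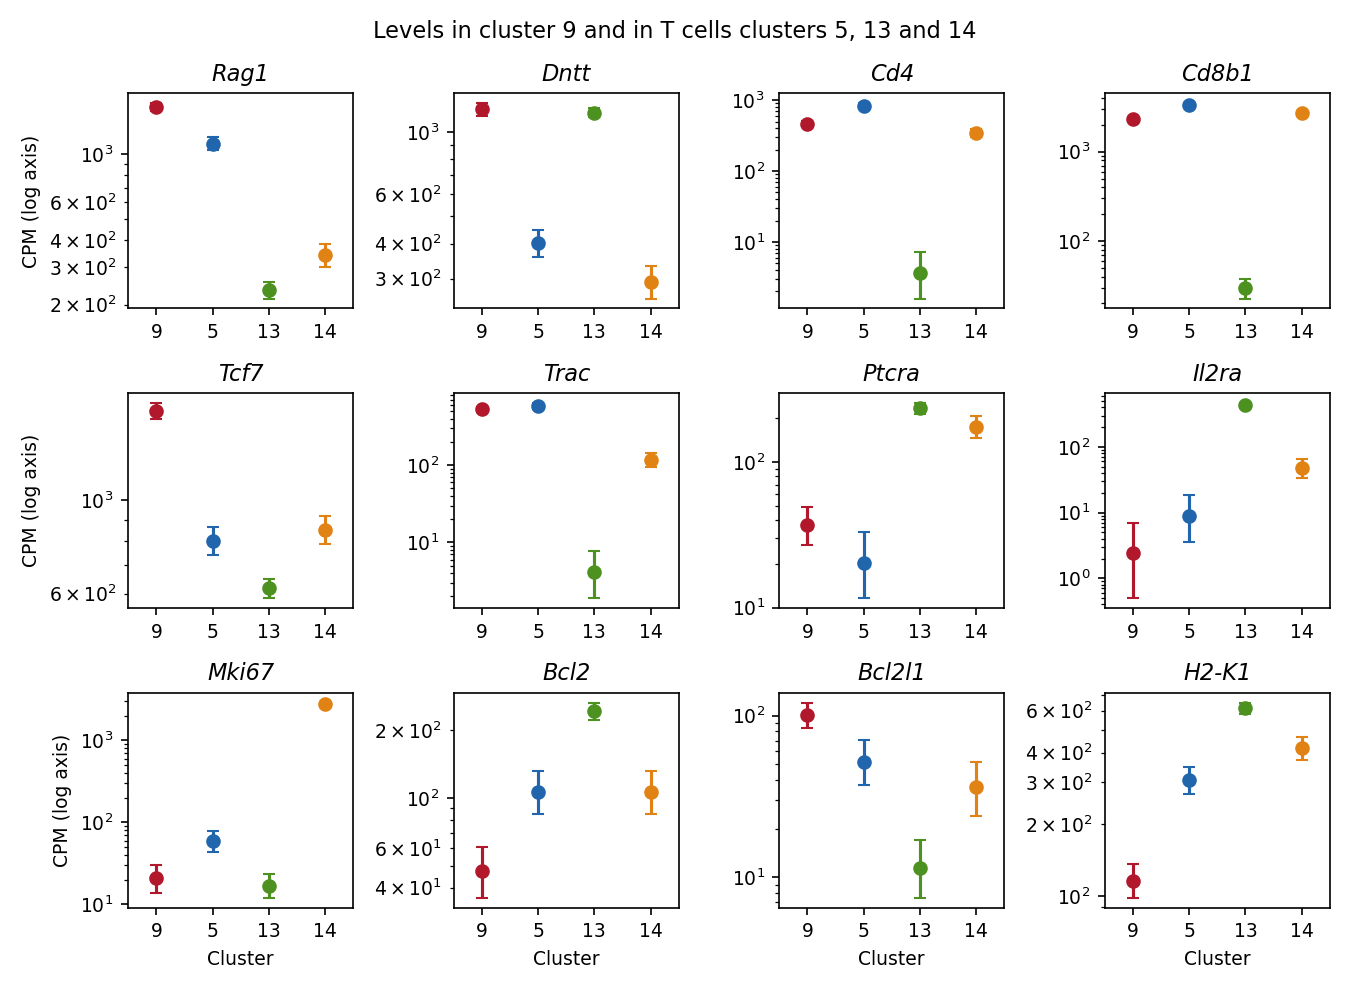
Levels of 12 genes in clusters 9, 5, 13 and 14 as CPM on log axes that differ between panels, with exact Poisson 95% intervals, both libraries pooled. Rag1, Tcf7 and Bcl2l1 are highest in cluster 9, Cd4, Cd8b1 and Trac are near absent in cluster 13 and present in cluster 9, Ptcra and Il2ra are highest in cluster 13, and Mki67 is highest in cluster 14.

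Genes of earlier thymocyte stages were low. Their summed level of 219 CPM over 18 members was the lowest of the 20 clusters, next to 296 CPM in cluster 5, with 2053 CPM in cluster 13 and 701 CPM in cluster 14. Against the other clusters 11 of 18 were over 2-fold lower and 0 higher (24.8% and 11.5% of 14202 features), with a median of -2.32. Against clusters 5, 13 and 14, 10 of 16 were lower and 0 higher (15.8% and 4.06% of 9989 features), with a median of -1.57. Il2ra, the interleukin 2 receptor alpha chain that marks cells before and during beta chain assembly, had 3 UMIs in cluster 9 (2.40 CPM) and was at 437 CPM in cluster 13, 47.5 CPM in cluster 14 and 8.86 CPM in cluster 5. Its ratio to cluster 13 was 0.00549 (0.00113 to 0.0161). Hes1, a Notch target, was at 22.4 CPM against 709 CPM in cluster 13, and the receptor gene Notch1 itself at 41.7 CPM against 357 CPM. Notch3 was at 8.01 CPM against 116 CPM, and Kit, the stem cell factor receptor, had 1 UMI. Ptcra was at 36.9 CPM (27.0 to 49.2) in cluster 9, 20.3 CPM in cluster 5, 234 CPM in cluster 13 and 175 CPM in cluster 14. Cluster 9 therefore resembled cluster 5 in the low level of these genes, and both lay below clusters 13 and 14.

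The receptor genes divided by chain. Trac, the constant gene of the alpha chain, which is assembled last, was at 530 CPM (490 to 572) in cluster 9, 581 CPM in cluster 5, 118 CPM in cluster 14 and 4.13 CPM in cluster 13. The beta chain constant gene Trbc2 had 7868 UMIs, 21.9 per cell and 6305 CPM (6166 to 6446). Its CPM was the highest of the 20 clusters and 1.88 times cluster 5 (1.80 to 1.97). Per cell, clusters 6 and 12 held more Trbc2, at 64.3 and 24.0 UMIs. Trbc1 was at 3551 CPM, 1.07 times cluster 5. Trbc1 and Trbc2 are near-identical copies, so how reads were split between them is uncertain. The gamma constant genes went the opposite way: Tcrg-C1 had 4 UMIs (3.21 CPM) against 519 CPM in cluster 13, and Tcrg-C2 had 3 UMIs against 496 CPM, ratios of 0.00618 (0.00168 to 0.0159) and 0.00484 (0.000997 to 0.0142). Trdc, the delta constant gene, was at 53.7 CPM in cluster 9, 58.2 CPM in cluster 5, 254 CPM in cluster 13 and 395 CPM in cluster 14.

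RNA of the variable segments was counted at much lower numbers, and alpha and gamma sums were high in the same clusters as their constant genes. Beta sums, like Trbc2, were lowest in cluster 13 of the 4, but cluster 9 did not stand above clusters 5 and 14. Delta sums, like Trdc, were highest in cluster 14 but lowest in cluster 13, where Trdc was above clusters 5 and 9. Symbols of the variable genes of all 4 chains and of the alpha and beta joining genes numbered 249. Of these, 68 had 291 UMIs in all in cluster 9. Alpha variable genes summed to 127 CPM (108 to 149) in cluster 9, against 172 CPM (144 to 204) for cluster 5, 62.9 CPM for cluster 14 and 11.02 CPM for cluster 13. Beta variable genes summed to 84.1 CPM (68.8 to 102), with 91.2, 24.3 and 89.9 CPM in clusters 5, 13 and 14. The counting intervals of clusters 9 and 5 overlapped for both chains, for alpha only between 144 and 149 CPM. Overlap does not show equal levels, and no interval of the ratio was computed for these sums. Gamma variable genes with symbols starting Tcrg-V had 1 UMI in cluster 9 (0.801 CPM), against 26.2 CPM for cluster 13 and 6.42 CPM for cluster 14. With Trgv2, a symbol added after the data were seen, the sums were 1.60, 196 and 64.2 CPM, of which Trgv2 alone made 169 CPM in cluster 13. Delta variable genes summed to 20.8 CPM (13.6 to 30.5), below cluster 5 (46.8 CPM, 33.0 to 64.6) and cluster 14 (74.4 CPM) and above cluster 13 (2.75 CPM). Alpha and beta joining genes had 0 UMIs in all 4 clusters, where 3 counts would be 2.40 CPM in cluster 9. The variable genes with the most UMIs in cluster 9 were Trbv2 (36), Trav6-7-dv9 (20), Trdv2-2 (17) and Trbv12-2 (15).

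**Figure D4:**
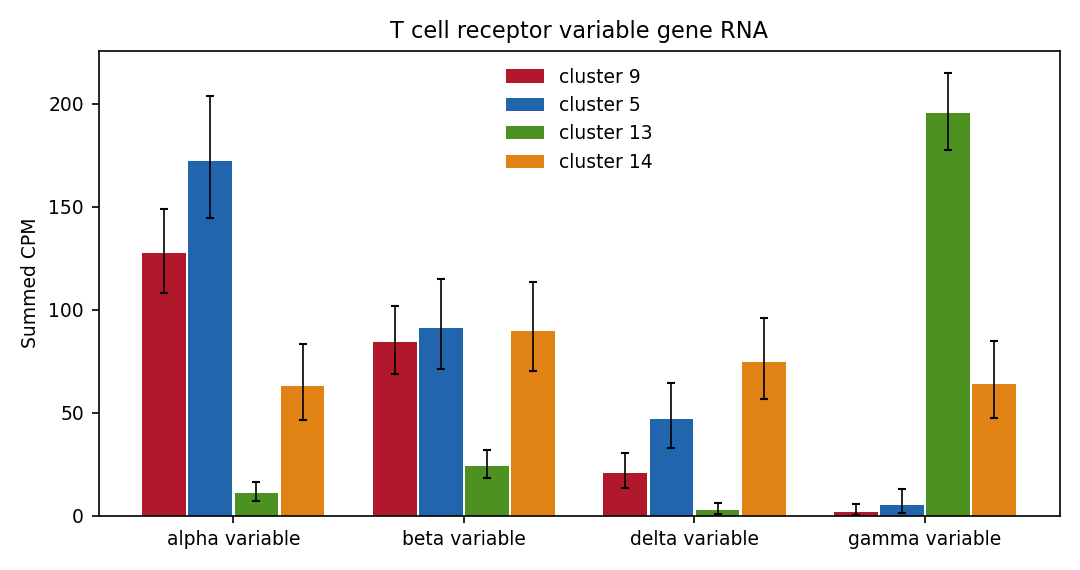
Summed CPM of T cell receptor variable genes by chain in clusters 9, 5, 13 and 14, with exact Poisson 95% intervals on bars that start at 0, both libraries pooled. Alpha variable RNA stands at 127 CPM for cluster 9 against 172 CPM for cluster 5, and gamma variable RNA, here with the symbol Trgv2 that was added after the data were seen, at 1.60 CPM against 196 CPM for cluster 13 (0.801 against 26.2 CPM without it).

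The CD3 chains, which carry the receptor's signal and were the negative criterion of the sort as surface protein, had abundant RNA in cluster 9. Cd3e was at 817 CPM, Cd3d at 1313 CPM and Cd3g at 1109 CPM, or 2.83, 4.55 and 3.84 UMIs per cell. Each was below cluster 5, at 0.614, 0.708 and 0.610 times its level. Cd3g was also 0.415 times cluster 13 and 0.379 times cluster 14. Cd247, the zeta chain, was at 370 CPM, 0.840 times cluster 5 and 2.26 times cluster 13. Over the 11 testable CD3 and receptor constant genes, 7 were over 2-fold higher than the other clusters and 3 lower, with a median of 1.73. The lower count is near the 24.8% of 14202 features that were lower, and 11.5% were higher. Against clusters 5, 13 and 14, 2 were higher (Trac and Trbc2) and 5 lower (Cd3g, Trdc, Tcrg-C1, Tcrg-C2 and Tcrg-C4), with a median of -0.35. In that comparison 4.06% of 9989 features were higher and 15.8% lower.

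Kinases and adaptors downstream of the receptor were above most clusters and close to the T lineage clusters. In the list of 22, 12 were over 2-fold higher than the other clusters and 0 lower (11.5% and 24.8% of 14202 features), with a median of 1.19. Against the mean of clusters 5, 13 and 14, 1 was higher and 0 lower (4.06% and 15.8% of 9989 features), with a median of 0.27. The median was -0.33 against cluster 5 alone. Lck, the coreceptor-bound kinase, was at 1059 CPM in cluster 9, 0.826 times cluster 5 and 1.69 times cluster 13. Zap70, the kinase recruited to phosphorylated CD3 chains, was at 111 CPM (93.6 to 132), the highest of the 20 clusters and 6.07 times cluster 13, and it was the member over 2-fold above the T lineage mean. The scaffold gene Lat was at 1006 CPM, 1.15 times cluster 5. Tespa1, which encodes a signaling adaptor of developing thymocytes, was at 316 CPM, 0.423 times cluster 5. Cd5, a receptor whose level follows receptor signal strength, was at 114 CPM, 0.545 times cluster 5 and 15.5 times cluster 13.

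Lymphoid transcription factors ranged from the highest to the lowest level of the 20 clusters. In the list of 27, 7 were highest in cluster 9 and 3 had 0 UMIs, and 13 of 26 were over 2-fold higher than the other clusters and 8 lower, with a median of 1.01 (1.09 with members at 0 UMIs set at the floor of 3 counts). The lower count stands near the 24.8% of 14202 features that were lower, and the higher count beside 11.5%. Against clusters 5, 13 and 14, 3 of 20 were higher, among them Tcf7 and Id3, and 1 lower (Runx3), with a median of 0.24. Of 9989 features 4.06% were higher and 15.8% lower in that comparison. Tcf7, which encodes TCF-1, was at 1635 CPM (1565 to 1707) in cluster 9, 801 CPM in cluster 5, 850 CPM in cluster 14 and 617 CPM in cluster 13. Id3, which encodes an inhibitor of E proteins, was at 182 CPM (159 to 207), with 94.96, 70.6 and 13.8 CPM in clusters 5, 14 and 13. Tcf7 and Id3 thus stood above all 3 references without overlap of the intervals. Bcl11b, required for T lineage commitment, was at 912 CPM and 1.02 times cluster 5 (0.927 to 1.12), and Lef1 at 246 CPM and 1.12 times cluster 5 (0.929 to 1.36), so neither could be told from cluster 5 at this depth. The E protein gene Tcf3 was at 107 CPM, the highest of the 20 clusters, and Tcf12 at 354 CPM, 0.661 times cluster 5. Runx3, a factor of the CD8 lineage, was the lowest of the 20 clusters at 16.03 CPM. Gata3 was at 83.3 CPM, and Foxp3 and Tbx21, which mark regulatory and type 1 T cells, were at 0 UMIs.

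Genes of cell survival and death showed no common direction, with 4 of 20 over 2-fold higher and 4 lower than the other clusters (median -0.05), and 3 higher and 3 lower than clusters 5, 13 and 14 (median 0.12). The counts of lower members are near the 24.8% and 15.8% of all features that were lower, and those of higher members stand beside 11.5% and 4.06%. Individual members differed widely. Bcl2l1, which encodes the survival protein BCL-XL, was highest in cluster 9 at 101 CPM (84.1 to 120), with 51.9, 35.9 and 11.5 CPM in clusters 5, 14 and 13. Bcl2, the other main survival gene of lymphocytes, was at 47.3 CPM (36.0 to 61.0), with 106, 107 and 244 CPM. The pair was therefore ordered in opposite ways across these clusters. Among death-promoting genes, Bbc3, which encodes PUMA, was at 57.7 CPM (45.1 to 72.7) against 15.2, 5.05 and 2.57 CPM in clusters 5, 13 and 14, and Bad was at 55.3 CPM, 3.64 times cluster 5 (1.96 to 7.38). Bcl2l11, which encodes BIM, was at 511 CPM, 0.562 times cluster 5 and 3.79 times cluster 13. The death receptor gene Fas was at 123 CPM, 0.928 times cluster 5 and 44.8 times cluster 13 (20.1 to 124), and the cell cycle inhibitor gene Cdkn1a at 24.0 CPM, 0.159 times cluster 13.

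Cell cycle genes were far below the cycling clusters and near the middle of the rest. Their summed level of 516 CPM ranked 14 of 20, against a median of 616 CPM and a range from 280 to 9006 CPM over the other clusters, highest in cluster 14. Of 28 members 21 were over 2-fold lower and 0 higher against the other 19 clusters, cluster 14 included (24.8% and 11.5% of 14202 features, median -1.66). Against the mean of clusters 5, 13 and 14, 26 of 28 were lower and 0 higher (15.8% and 4.06% of 9989 features, median -2.73), and cluster 14 set most of this contrast. With the clusters taken separately, 27 of 27 members were lower than cluster 14 (median -3.98), whereas 6 of 17 were lower than cluster 5 (median -0.89) and 8 of 19 lower and 1 higher than cluster 13 (median -0.91). The shares of all features lower than clusters 14, 5 and 13 were 19.1%, 9.64% and 12.5%, and 11.6% were higher than cluster 13. Mki67, a marker of cycling cells, was at 20.8 CPM (13.6 to 30.5) in cluster 9, 59.5 CPM in cluster 5, 17.0 CPM in cluster 13 and 2758 CPM in cluster 14. Top2a, the mitotic topoisomerase gene, was at 29.7 CPM and 0.0203 times cluster 14, and the replication genes Mcm3 and Mcm5 were at 16.8 and 13.6 CPM, 0.109 and 0.133 times cluster 14. Mki67 in clusters 9 and 13 could not be told apart at this depth, with a ratio of 1.23 (0.713 to 2.08), and Mcm6 separated them, at 32.1 CPM and 0.289 times cluster 13 (0.201 to 0.404). The 1 of those 19 members over 2-fold above cluster 13 was Ube2c, at 36.1 CPM.

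Genes of positive selection and the single-positive stages were lower than in most clusters, with 12 of 21 over 2-fold lower and 4 higher (24.8% and 11.5% of 14202 features, median -1.43), and nearer to the background against clusters 5, 13 and 14 (4 of 18 lower, 1 higher, median -0.31), where 15.8% and 4.06% of all features were lower and higher. The 4 higher than the other clusters were Cd5, Itm2a, Cd28 and Tox. Cd28, the costimulatory receptor gene, was at 538 CPM, 0.554 times cluster 5 and 7.14 times cluster 13. Cd69, an early activation antigen, was at 87.3 CPM, 0.543 times cluster 5, 0.509 times cluster 13 and 2.20 times cluster 14. Il7r, the interleukin 7 receptor gene that returns after selection, had 9 UMIs (7.21 CPM), against 16.5 CPM in cluster 5 and 87.7 CPM in cluster 13. Nr4a1, an immediate target of receptor signals, was at 199 CPM, 1.26 times cluster 5 (1.01 to 1.57), and Egr1 at 45.7 CPM, 0.707 times cluster 5 (0.476 to 1.05).

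Genes of homing and exit were also low, with 13 of 20 over 2-fold lower than the other clusters and 2 higher, Ccr9 and Plxnd1 (24.8% and 11.5% of 14202 features, median -1.97). S1pr1, the receptor by which mature thymocytes leave for the blood, was at 11.2 CPM (6.13 to 18.8) and Klf2, which drives it, at 202 CPM. S1pr1 was 0.316 times cluster 5 (0.154 to 0.622), and Klf2 was 0.978 times cluster 5 and 1.61 times cluster 13. Ccr7, a chemokine receptor for entry into lymph nodes, was at 27.2 CPM. Itgb7, an integrin chain, was the lowest of the 20 clusters at 15.2 CPM, and Cxcr4 was at 135 CPM and 0.588 times cluster 5. Against clusters 5, 13 and 14, 3 of 16 were lower and 0 higher (median -0.65), close to the 15.8% of all features that were lower, and against cluster 13 alone the median was 0.47.

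Effector genes were nearly absent. Of 19 cytokine and cytotoxic genes 11 had 0 UMIs, among them Ifng, Il4, Il17a, Fasl and Cd40lg. The 19 genes summed to 227 CPM in cluster 9, rank 16 of 20. Over the other clusters the median sum was 682 CPM and the highest 38492 CPM, in cluster 3. The 17 members with enough counts were all over 2-fold lower than the other clusters (24.8% of 14202 features), 9 of them through 0 UMIs, and the median was -4.06, or -2.45 with those 9 set at the floor of 3 counts. Gzma, a granzyme gene, was the exception in level at 168 CPM, 0.936 times cluster 5 (0.753 to 1.17), 0.463 times cluster 13 and 0.144 times cluster 14. Nkg7, a cytotoxic granule gene, had 7 UMIs.

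Genes of MHC class I presentation had their lowest summed level in cluster 9, at 2017 CPM against 2651, 4456 and 3624 CPM in clusters 5, 13 and 14 and up to 20709 CPM in cluster 16. Of 13 members 9 were over 2-fold lower than the other clusters and 0 higher (24.8% and 11.5% of 14202 features, median -1.23). Against clusters 5, 13 and 14, 7 were lower (15.8% of 9989 features, median -1.12). The heavy chain gene H2-K1 was at 116 CPM (98.0 to 137) in cluster 9, 306 CPM in cluster 5, 417 CPM in cluster 14 and 614 CPM in cluster 13. H2-D1 was at 288 CPM and the light chain gene B2m at 385 CPM. All 3 genes were at the lowest level of the 20 clusters, and B2m was 0.817 times cluster 5 (0.712 to 0.938). The peptide transporter gene Tap1 was at 50.5 CPM, 0.480 times cluster 5. Psmb8, an immunoproteasome subunit gene, was an exception at 467 CPM, 2.29 times cluster 5 (1.92 to 2.75).

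Among 18 surface molecules of thymocytes and T cells, 5 were over 2-fold higher and 7 lower than the other clusters (11.5% and 24.8% of 14202 features, median -0.77). Against clusters 5, 13 and 14, 0 were higher and 5 lower (4.06% and 15.8% of 9989 features, median -0.29). The 7 lower than the other clusters include Ly6a, which encodes Sca-1, at 22.4 CPM, and the tetraspanin gene Cd53 at 22.4 CPM, both lowest of the 20 clusters. Thy1 was at 741 CPM, 0.555 times cluster 5, and Cd27 at 619 CPM, 0.566 times cluster 5. Most glycolytic genes lay within 2-fold of the other clusters (5 of 18 lower, 0 higher, median -0.55 against the other clusters), close to the 24.8% of all features that were lower, with Gapdh at 788 CPM, 2.42 times cluster 5 and 0.799 times cluster 13. Of 14 immediate early and stress genes 8 were lower and 1, the chaperone gene Dnajb1, higher than the other clusters (24.8% and 11.5% of 14202 features, median -1.26), with Jun and Fosb, at 110 and 51.3 CPM, lowest of the 20. Against clusters 5, 13 and 14 the median of this list was 0.06.

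**Figure D5:**
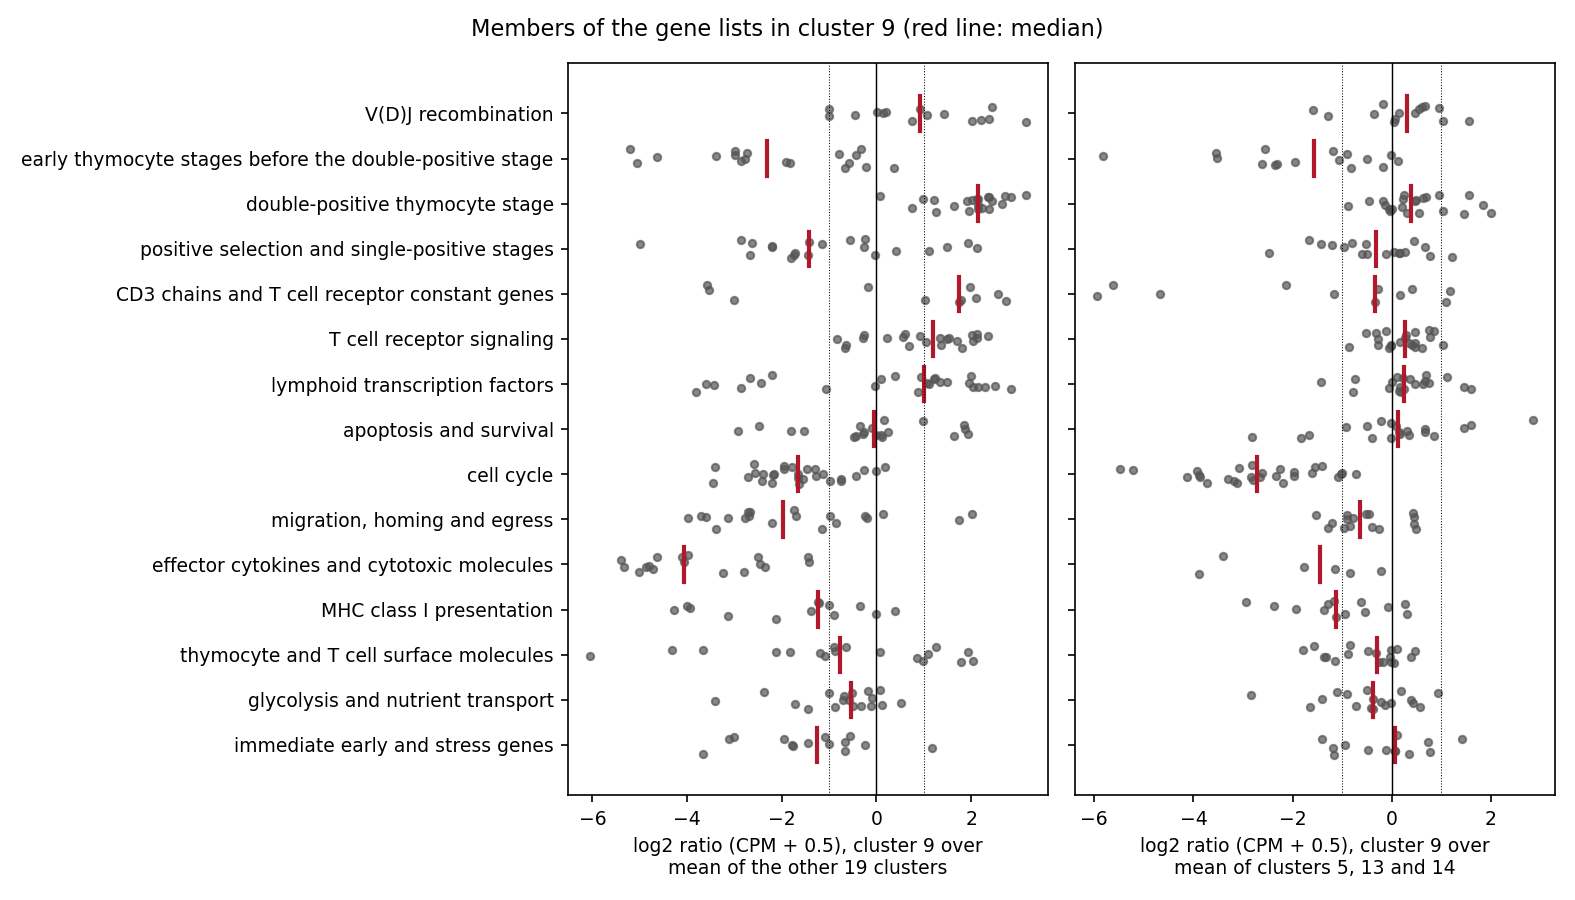
Log2 ratio of (CPM + 0.5) in cluster 9 over the mean of the other 19 clusters (left) and over the mean of clusters 5, 13 and 14 (right), with a point for each member of the 15 gene lists and a red line at the list's median, both libraries pooled; dotted lines mark 2-fold. The double-positive list lies at 2.14 on the left and 0.38 on the right, and the cell cycle list at -1.66 and -2.73.

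The 30 genes with the largest ratio to the mean of the other clusters, among 3953 genes with at least 50 UMIs in cluster 9, were 5.91 to 12.1 times that mean. Of these 23 were highest in cluster 9, and for 24 of the 30 the highest of the other clusters was cluster 5. The set begins with BC028471 (12.1 times), Gm15340, Capn3, Zfyve28 and Insl5 (10.1 times) and includes Rag1, Trac, Trbc2, Sh2d1a and Rmnd5a. Insl5, an insulin-like peptide gene, was at 149 CPM and 63.3 CPM in cluster 5, and Chrna9, an acetylcholine receptor subunit gene, at 288 CPM and 161 CPM. Ntrk3, a neurotrophin receptor gene, was at 220 CPM in cluster 9, 204 CPM in cluster 5 and 2.75 CPM in cluster 13. Gm15340, Gm37065 and Dgkeos overlap 1600002D24Rik, Slamf6 and Dgke on the other strand in GENCODE M21, and the sources used here do not say whether the counting used strand, so their counts are uncertain. The same holds for Sh2d1a, which overlaps Tenm1, and for Rag2, which overlaps B230118H07Rik. Rag1 lies on the same strand as B230118H07Rik, so reads from the overlap could not be told apart. Further genes named here overlap others, among them Arpp21, Ntrk3 and Zfyve28 on the other strand and Capn3, Chrna9 and BC028471 on the same strand, with the same limit.

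The 20 genes with the largest ratio to the mean of clusters 5, 13 and 14 were 3.53 to 7.59 times that mean, and 11 of them are also in the set of 30. Bbc3 led at 7.59 times. Tubb2b, a beta tubulin gene with the close copy Tubb2a, was at 456 CPM in cluster 9, 137 CPM in cluster 5, 53.9 CPM in cluster 14 and 19.3 CPM in cluster 13. Ldhb, which encodes the lactate dehydrogenase B chain, was at 756 CPM, with 156, 78.3 and 148 CPM. Both were over 3-fold higher than in any of the 3 references. Ada, the adenosine deaminase gene whose loss depletes thymocytes, was at 67.3 CPM, with 13.9 CPM in cluster 5, and Ddit4, a stress-induced inhibitor of mTORC1, at 54.5 CPM, with 10.1 CPM. Aes, a Groucho family corepressor gene, was at 1005 CPM, with 296 CPM in cluster 5.

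The 20 genes with the smallest ratio to that mean, among 7541 genes with at least 50 UMIs in clusters 5, 13 and 14 together, included 15 with 0 UMIs in cluster 9. For 15 of the 20 the highest of the 3 references was cluster 13 and for 5 it was cluster 14. Aspm, a mitotic spindle gene at 244 CPM in cluster 14, was at least 35.1-fold lower in cluster 9 than the mean of the 3, taking 3 counts as the floor of cluster 9. Atp8b4 and the imprinted noncoding gene H19, at 138 and 69.3 CPM in cluster 13, were at least 21.8-fold and 9.79-fold lower. Cpa3, a mast cell protease gene also made by early progenitors, had 1 UMI against 145 CPM in cluster 13.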

How the data were processed

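Single-cell 3′ RNA sequencing of 1 saline and 1 nt-LNA library was processed by the authors with Cell Ranger 2.1.1 and Seurat on mouse build mm9, per the submitters' processing notes. The sources used here name no cell filter and no handling of doublets, and no doublet caller was run, since counts per cell were not used. The deposited count table gives a whole-number UMI sum for each gene and each of 20 clusters, to which cells of either library contribute. The deposited cell table gives each cell's library, cluster and name, and the deposited summary gives cells and the percent of cells per library, which equalled tallies of the cell table within rounding (largest difference 0.0496 percentage points). Cluster 9 held 1247945 UMIs over 12655 genes, so 1 UMI is 0.801 CPM and 3 counts are 2.40 CPM.

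CPM, ratios and log2 ratios (pseudocount 0.5 CPM, features with at least 20 counts over the clusters compared, called when over 2-fold) were computed here. No test was made, because there is 1 library per treatment and the clusters rest on the same expression values. The members, gene lists and alternatives were chosen with earlier results of these data known. Named genes are the 30 with the largest ratio to the other clusters and the 20 with the largest ratio to clusters 5, 13 and 14 (at least 50 UMIs in cluster 9), the 20 with the smallest ratio to those clusters (at least 50 UMIs there), the members of all lists (some of which are not reported here), Ptprc, Apoe and Malat1. Symbols were used as deposited, and 30464 of 31053 matched GENCODE M21. Promoters are from RefSeq (GRCm38.p6) and were not joined to coordinates of the files. The calculations ran in Python 3.11.15 (numpy 2.4.6, pandas 2.3.3, scipy 1.17.1, matplotlib 3.10.9), with TMM factors from edgeR 4.0.16 in R 4.3.3 on the deposited counts, and were tested on simulated data. Of the alternatives tried, the denominator of the 6 clusters deposited as T cells and the Trgv symbols were added after the data were seen.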

Additional observations from a re-analysis of the deposited data

How the results depend on the processing

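Across 312 recomputed values, 258 stayed within the bounds set for each result, 49 moved and 5 changed sign. Against single clusters, 25 of 45 list medians stayed, 15 moved and 5 changed sign. With the other settings, 208 of 225 list medians stayed and 17 moved. Some bounds were wide: those of the early-stage median of -1.57 against clusters 5, 13 and 14 ran from -2.68 to -0.45. The -0.51 against cluster 5 alone thus counted as unchanged. The ratio of shares, 1.11 over all cells, was 0.633 within clusters 5, 9, 13 and 14, 0.674 within the 6 clusters deposited as T cells (chosen after the data were seen), 1.49 with clusters named B, T or NK cells left out apart from cluster 9, and 1.65 for all 6 clusters deposited as T cells. Without clusters 2, 5, 14 and 16 in the denominator the ratio was 1.30, within its bounds. The 1635 features over 2-fold higher than the other clusters became 788 with a pseudocount of 5 CPM and 1029 under TMM scaling, and the 3519 lower became 1594 with 5 CPM. Against clusters 5, 13 and 14 the 406 higher became 256 with 5 CPM, 1099 with no minimum count, 232 with at least 100 counts, and 729, 1050 and 1222 against clusters 5, 13 and 14 alone. The 1578 lower became 907, 2882 and 650 under the first 3 of these settings and 775 against cluster 5 alone.

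With reference counts pooled, medians against the other clusters moved to 2.42 (double-positive), 2.26 (CD3 and receptor constant genes), 1.75 (receptor signaling) and -0.21 (surface molecules), and against clusters 5, 13 and 14 to 0.88 (double-positive), -0.15 (CD3 and constant genes) and -0.21 (immediate early). Without clusters 2, 5, 14 and 16 in the reference they were 2.66, 2.52, 1.82 and -0.41 for the first 4 lists. TMM scaling gave 2.03 (double-positive), 0.73 (transcription factors), -1.60 (MHC class I) and -1.61 (immediate early) against the other clusters. With no minimum count the CD3 and constant genes were at 1.37 and -0.75 for the 2 references.

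Against cluster 5 alone the signs turned for double-positive (-0.33), signaling (-0.33) and transcription factor genes (-0.14), and cell cycle (-0.89), MHC class I (-0.67) and surface genes (-0.82) moved. Against cluster 13 alone the signs turned for CD3 and constant genes (0.24) and migration (0.47), and double-positive (1.91), positive selection (0.16), signaling (1.02), transcription factors (0.64), cell cycle (-0.91), MHC class I (-0.74), surface (0.30) and immediate early genes (-0.21) moved. Against cluster 14 alone transcription factors (0.61), cell cycle (-3.98), effector (-2.77) and immediate early genes (0.60) moved. These references are single clusters of unequal depth, and the cause of each shift was not tested.

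No paired analysis was possible because each treatment has 1 library and the labels give no replicate numbers. Counts per cluster limit the genes with few UMIs: 1 UMI is 0.801 CPM in cluster 9.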

Other observations

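Clusters 12 and 6, deposited as B cells and Macrophages, also held RNA of several genes described for cluster 9, given here as UMIs per cell. Rag1 was at 5.74 UMIs per cell in cluster 9, 5.87 in cluster 12 and 4.49 in cluster 6. Dntt was at 4.17 UMIs per cell in cluster 9, 4.39 in cluster 12 and 16.8 in cluster 6. Cd8b1 was at 8.08 in cluster 9 and 10.9 in cluster 12, Cd4 at 1.61 and 2.03, Trac at 1.84 and 2.02, Trbc2 at 21.9 and 24.0 and Tubb2b at 1.58 and 1.79. Cluster 12 was thus above cluster 9 in each of these genes per cell, whereas in CPM cluster 9 was above cluster 12 in each of them, for example at 1203 CPM against 370 CPM for Dntt and 2332 CPM against 920 CPM for Cd8b1. Such RNA was not limited to these clusters. Cluster 19, deposited as Macrophages, held 3.59 Rag1, 3.15 Dntt, 7.19 Cd8b1 and 20.6 Trbc2 UMIs per cell. Cluster 0, also deposited as Macrophages, held 2.72, 2.88, 5.75 and 13.1. In CPM both were below cluster 9, with Rag1 at 144 and 197 CPM.

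Cluster 12 differed from cluster 9 in its total and in other genes. The mean was 11884 UMIs per cell in cluster 12 and 3467 in cluster 9, and immunoglobulin genes gave 1.19% and 0.0978% of UMIs. H2-K1, lowest of the 20 clusters in cluster 9, was at 14.6 UMIs per cell in cluster 12 and 0.403 in cluster 9, and Bcl2 at 1.10 and 0.164. Whether cells of cluster 12 hold more than 1 cell each was not tested.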
